A study of Mus musculus with 12 samples.

Results

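The Hedgehog pathway was followed through 9 genes in primary mouse skin fibroblasts stimulated with TGF-β2. These genes were the coreceptors Gas1, Boc and Cdon, the ligand-binding genes Ptch1 and Hhip, the signal transducer Smo, and the transcription factors Gli1, Gli2 and Gli3. They were picked by name out of 21556 genes with read counts, with their responses to TGF-β2 already known. Those responses, and the calls printed for them, are therefore given as a description and not as a test. The data comprise 12 RNA libraries, with n = 3 in each of 4 groups. WT cells came from C57BL/6 mice and Nox4 KO cells from B6.129-Nox4tm1Kkr/J mice, which carry a targeted disruption of Nox4 in all their cells. The mouse lines were derived from littermates of heterozygous crosses and then kept as separate WT and Nox4 KO litters. In both genotypes the fibroblasts were grown from abdominal skin, passaged, starved for 24 h and then either left without TGF-β2 (control) or given TGF-β2 at 10 ng/ml for 24 h. The age and sex of the mice used for these cells are not given in the sources used here. The design calls the 3 libraries of a group biological replicates without saying whether they are separate mice, and p-values measure the spread between these libraries.

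Hedgehog ligands are secreted proteins that bind the receptor Ptch1 together with a coreceptor, Gas1, Boc or Cdon. Ligand binding frees Smo from inhibition by Ptch1, Smo gathers in the primary cilium, and the Gli proteins are then turned from repressors into activators of transcription. Gli2 acts mainly as the activator, Gli3 mainly as the repressor, and Gli1, Ptch1 and Hhip are themselves target genes that are often read as gauges of pathway output. In skin the pathway is best known from the hair follicle, where epithelial Shh signals to the dermal papilla, and from basal cell carcinoma.

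Total counts ranged from 35118344 to 43796260 per library. Nox4, the targeted gene, was still counted in every Nox4 KO library, at 0.636 to 1.4 RPKM in control and 4.39 to 6.85 RPKM after TGF-β2, against 1.31 to 2.42 and 8.56 to 16.3 RPKM in WT. RPKM scales the count to the length of the merged exons and to the library total, so it can be compared between genes. All 8 fibroblast markers checked were expressed in every group, with a summed level of 5120 to 7410 RPKM. Keratinocyte markers summed to at most 0.951 RPKM in any library. The sum of 5 endothelial markers was low and lower after TGF-β2 without overlap, at 0.897 to 1.48 RPKM in WT control and 0.204 to 0.602 RPKM in WT with TGF-β2, and at 0.566 to 0.926 and 0.195 to 0.297 RPKM in Nox4 KO. Most of it was Tek, with a mean of 0.951 and 0.190 RPKM in WT and 0.594 and 0.119 RPKM in Nox4 KO, while Pecam1 and Cdh5 stayed at or under 0.133 RPKM in every library. The part of endothelial cells in the lower levels described below was not tested. The sum of 6 myeloid markers differed widely between libraries, from 4.90 to 30.4 RPKM in control and from 3.99 to 22.3 RPKM after TGF-β2. In bulk RNA, fewer cells of a type and less RNA per cell cannot be told apart.

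Among the coreceptors, Gas1 was the one whose level differed most after TGF-β2. Gas1 (ENSMUSG00000052957) encodes a membrane-anchored protein that binds Hedgehog ligands and that was first known as a gene of growth-arrested fibroblasts. Its single exon spans chr13:60174405-60177365 of GRCm38 on the minus strand and overlaps the non-coding gene Gm48488 on the other strand by 589 bp. Whether reads were counted by strand is not stated, so reads of this pair cannot be told apart there. In WT control libraries Gas1 was at 16.4, 10.6 and 45.1 RPKM, and after TGF-β2 it was at 0.713, 0.797 and 1.45 RPKM. Nox4 KO control libraries had 26.4, 16.0 and 28.8 RPKM, and Nox4 KO libraries with TGF-β2 had 0.630, 0.548 and 1.82 RPKM. No stimulated library came near any control library, while the 3 WT control libraries themselves were far apart.

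The log2 fold change of Gas1 was -4.55 ± 0.62 (SE, n = 3 libraries against 3) in WT and -4.49 ± 0.52 (SE, n = 3 against 3) in Nox4 KO. This made Gas1 the 8th lowest of 10743 genes in WT and the 5th lowest of 10809 genes in Nox4 KO. The WT control library with 45.1 RPKM carried part of the size. Without it the WT value was -3.74, and over all single libraries left out in turn the value lay between -4.93 and -3.74 in WT and between -5.24 and -4.20 in Nox4 KO. That library was also the highest of all 12 in the myeloid markers, at 30.4 RPKM, whereas the Nox4 KO control library with the highest Gas1 had the lowest myeloid sum of its group, at 4.90 RPKM. The part of these markers in the level of Gas1 was not tested.

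Cdon (ENSMUSG00000038119) encodes an immunoglobulin-family coreceptor that also takes part in muscle differentiation. It was at 12.1, 13.0 and 15.5 RPKM in WT control and at 5.87, 5.32 and 6.99 RPKM in WT with TGF-β2. Nox4 KO libraries had 15.5, 11.6 and 10.7 RPKM in control and 8.79, 6.92 and 7.15 RPKM after TGF-β2. Stimulated libraries were below control libraries in both genotypes, without overlap. Cdon had a log2 fold change of -1.11 ± 0.14 (SE) in WT and -0.64 ± 0.17 (SE) in Nox4 KO, where it was within the 2-fold limit. Without the first Nox4 KO control library this value was -0.46.

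Boc (ENSMUSG00000022687) encodes the closest relative of Cdon among the coreceptors. Its level was 15.6, 15.0 and 21.3 RPKM in WT control and 13.6, 12.3 and 14.6 RPKM in WT with TGF-β2. The Nox4 KO libraries were at 14.6, 15.1 and 17.9 RPKM in control and at 12.4, 13.2 and 13.6 RPKM after TGF-β2. Stimulated and control libraries did not overlap, but the gap between them was small beside the spread of the control libraries. For Boc the log2 fold change was -0.31 ± 0.14 (SE) in WT and -0.19 ± 0.08 (SE) in Nox4 KO. It was -0.14 in WT without the third control library and -0.11 in Nox4 KO without the third control library. Pairing the Nox4 KO libraries by replicate number gave -0.19 ± 0.05 (SE).

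Since RPKM accounts for gene length, the levels of the 3 coreceptors can be added. The WT control libraries had a mean sum of 54.9 ± 23.5 RPKM (SD, n = 3), and WT libraries with TGF-β2 had 20.6 ± 2.34 RPKM. For Nox4 KO the mean sum was 52.2 ± 8.27 RPKM without TGF-β2 and 21.7 ± 0.981 RPKM with it, again with n = 3. Gas1 held 27.5% to 55.1% of this sum in WT control libraries and 3.53% to 6.29% in stimulated WT libraries. Its share in Nox4 KO was 37.5% to 50.2% in control and 2.65% to 8.06% after TGF-β2. Boc was the largest of the 3 after TGF-β2, with 63.4% to 67.4% of the sum in WT and 56.9% to 63.8% in Nox4 KO. These shares are calculated from RNA alone and follow from the levels given above.

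**Figure D1:**
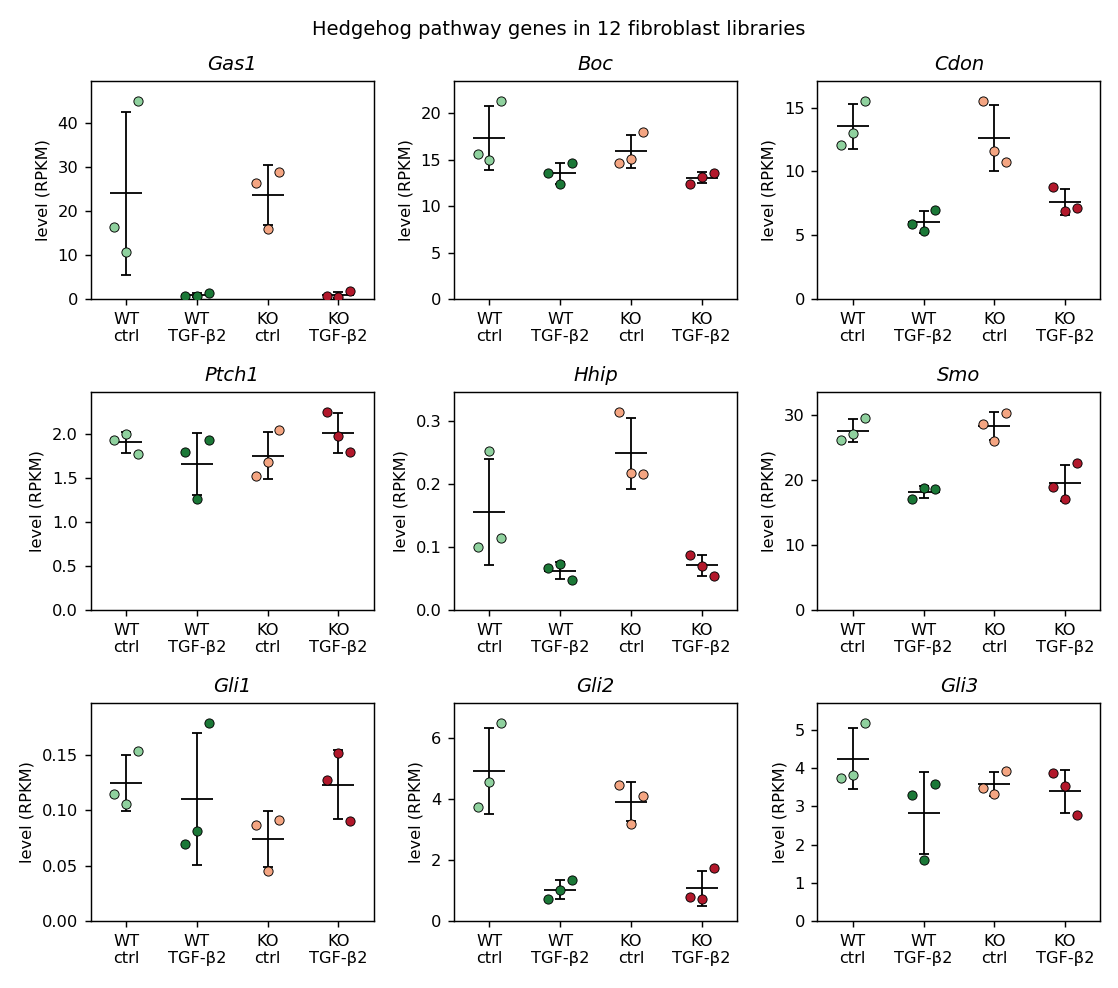
Level (RPKM, linear axes from 0) of the 9 Hedgehog pathway genes in WT and Nox4 KO fibroblasts without (ctrl) and with TGF-β2; points are the 3 libraries of each group in the order of their replicate numbers, and the bar and whiskers are the mean ± SD. Gas1 lies at 10.6 to 45.1 RPKM in the control libraries and at 0.548 to 1.82 RPKM after TGF-β2, Gli2 separates in the same way, and Ptch1 and Gli1 overlap between control and TGF-β2.

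Smo and Gli2 were lower after TGF-β2 in both genotypes. Smo (ENSMUSG00000001761), the seven-pass membrane protein that carries the signal inward, was at 26.1, 27.0 and 29.5 RPKM in WT control and at 17.0, 18.7 and 18.6 RPKM in WT with TGF-β2. The corresponding Nox4 KO values were 28.6, 25.9 and 30.2 RPKM in control and 18.95, 17.1 and 22.6 RPKM after TGF-β2. The libraries of each group were close together and the groups did not overlap. The log2 fold change was -0.57 ± 0.08 (SE) in WT and -0.44 ± 0.11 (SE) in Nox4 KO, both under the 2-fold limit.

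Gli2 (ENSMUSG00000048402) was at 3.74, 4.54 and 6.48 RPKM in WT control and at 0.727, 1.02 and 1.35 RPKM in WT with TGF-β2. Nox4 KO cells had 4.46, 3.20 and 4.09 RPKM in control and 0.788, 0.717 and 1.74 RPKM after TGF-β2. Each stimulated library was below each control library. This gave a log2 fold change of -2.21 ± 0.27 (SE) in WT and -1.78 ± 0.36 (SE) in Nox4 KO, the 116th and the 155th lowest values among the genes tested in each genotype. The third stimulated Nox4 KO library, the highest of its group, moved the Nox4 KO value most, to -2.29 when it was left out. The call of Gli2 in Nox4 KO was lost without the first control, the first stimulated or the second stimulated library, at log2 fold changes of -1.66, -1.59 and -1.56.

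Gli3 (ENSMUSG00000021318) differed less by stimulation than Gli2. It was at 3.75, 3.81 and 5.17 RPKM in WT control and at 3.30, 1.60 and 3.57 RPKM in WT with TGF-β2, where the second library was the low one. Gli3 in Nox4 KO was at 3.48, 3.33 and 3.92 RPKM in control and at 3.86, 3.54 and 2.77 RPKM after TGF-β2. The WT groups did not overlap, by a narrow margin, and the Nox4 KO groups did. The log2 fold change was -0.54 ± 0.31 (SE) in WT, or -0.25 without the second stimulated library, and 0.01 ± 0.14 (SE) in Nox4 KO. Gli2 and Gli3 were thus near each other in control and apart after TGF-β2. Gli2 made up 49.1% to 54.9% of the summed RPKM of Gli1, Gli2 and Gli3 in WT control and 17.7% to 37.8% after TGF-β2. In Nox4 KO its share was 48.6% to 55.6% in control and 16.3% to 37.7% after TGF-β2, and Gli3 held most of the rest.

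The genes read as gauges of pathway output, Ptch1, Gli1 and Hhip, were all at a low level. Ptch1 (ENSMUSG00000021466), the receptor and a target gene, was at 1.94, 2.00 and 1.78 RPKM in WT control and at 1.80, 1.26 and 1.93 RPKM after TGF-β2. The Nox4 KO libraries were at 1.53, 1.69 and 2.05 RPKM in control and at 2.25, 1.98 and 1.80 RPKM after TGF-β2. All 4 groups overlapped. The log2 fold change was -0.15 ± 0.18 (SE) in WT, or 0.02 without the second stimulated library, and 0.28 ± 0.14 (SE) in Nox4 KO.

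Gli1 (ENSMUSG00000025407), the Gli gene that depends most on active signaling, received 8 to 28 reads per library. Its level was 0.115, 0.106 and 0.153 RPKM in WT control and 0.0698, 0.0817 and 0.178 RPKM in WT with TGF-β2. Nox4 KO libraries had 0.0867, 0.0454 and 0.0913 RPKM in control and 0.127, 0.152 and 0.0899 RPKM after TGF-β2. Control and stimulated libraries overlapped in WT and, by a narrow margin, in Nox4 KO, and the gene was under the filter of 1 RPKM. Fitted without that filter, its log2 fold change was -0.11 ± 0.42 (SE) in WT and 0.84 ± 0.40 (SE) in Nox4 KO. Both intervals included 0, from -1.08 to 0.87 and from -0.11 to 1.80. On the other strand Gli1 overlaps the non-coding gene Gm47200 by 265 bp and Arhgap9 by 62 bp, and reads of these pairs cannot be told apart there.

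Hhip (ENSMUSG00000064325), a membrane protein that captures Hedgehog ligands and dampens the pathway, received 16 to 109 reads per library. It was at 0.100, 0.252 and 0.115 RPKM in WT control and at 0.0676, 0.0730 and 0.0474 RPKM in WT with TGF-β2. Nox4 KO cells had 0.314, 0.217 and 0.215 RPKM in control and 0.0873, 0.0705 and 0.0549 RPKM after TGF-β2. The stimulated libraries were lower than the control libraries in both genotypes, without overlap. Hhip was under the filter too. Fitted without the filter, the log2 fold change was -1.23 ± 0.42 (SE) in WT and -1.69 ± 0.29 (SE) in Nox4 KO.

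Of the 9 genes, 7 passed the filter on low levels in each TGF-β2 comparison. A call required a Benjamini-Hochberg adjusted p-value under 0.05 in edgeR's quasi-likelihood test over all genes and a fold change of at least 2. In WT, 3 of the 7 were called, Gas1, Gli2 and Cdon, all lower, where 5.09% of all 10743 genes tested were called lower. In Nox4 KO, Gas1 and Gli2 were called lower, where 4.58% of all 10809 genes tested were. None of the 7 was called higher in either genotype, where 2.62% and 2.22% of all genes were. As the genes were chosen with these responses known, the counts are a description and nothing is read from them. The libraries of control and TGF-β2 did not overlap, with the stimulated ones lower, for 6 of the 7 genes in WT and for 5 in Nox4 KO, against 24.9% and 31.5% of all genes.

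**Figure D2:**
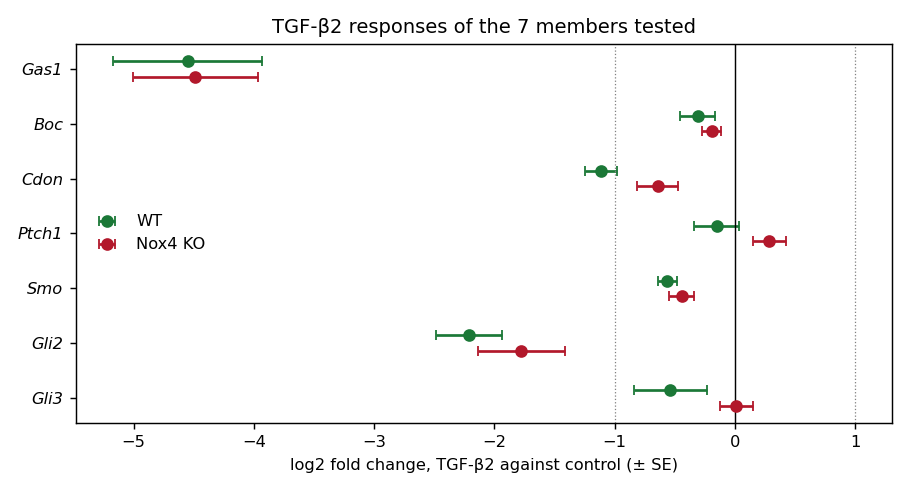
Log2 fold change of TGF-β2 against control, with its SE, for the 7 Hedgehog pathway genes above the filter, in WT (green) and Nox4 KO (red), 3 libraries against 3 in each; dotted lines mark a 2-fold difference. Gas1 lies near -4.5 in both genotypes, at -4.55 and -4.49, Gli2 follows at -2.21 and -1.78, and Boc, Ptch1, Smo and Gli3 stay within the dotted lines.

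In control cells the order of the levels was the same in both genotypes, with Smo first, then Gas1, Boc, Cdon, Gli2, Gli3, Ptch1, Hhip and Gli1. The libraries of neighbours overlapped in this order from Smo down to Cdon and between Gli2 and Gli3. They did not overlap between Cdon and Gli2, between Gli3 and Ptch1, or between Ptch1 and Hhip. Hhip and Gli1 overlapped in WT and were apart in Nox4 KO. After TGF-β2 the order in both genotypes was Smo, Boc, Cdon, Gli3, Ptch1, Gli2, Gas1, Gli1 and Hhip. Smo, Boc, Cdon and Gli3 were then apart from each other in both, Ptch1 overlapped Gli3 and Gli2 in WT and neither of them in Nox4 KO, and Gas1 overlapped Gli2 in both. The mean of Gas1 had come to 0.987 RPKM (SD 0.405) in WT and to 0.998 RPKM (SD 0.711) in Nox4 KO.

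Gas1, Gli2 and Smo had the highest correlations with each other among the 36 pairs of the 9 genes. Over the 12 libraries, of which 6 had TGF-β2, the log2 CPM (reads relative to the TMM-scaled library) of Gas1 had a Pearson r of 0.974 with Gli2 and 0.962 with Smo, and that of Gli2 had 0.971 with Smo. With each group's mean removed the values were 0.858, 0.751 and 0.881, and other pairs came close, Gli3 with Ptch1 at 0.745 and Boc with Gas1 at 0.701. For Gas1 with Ptch1 r was -0.26, and for Gas1 with Gli1 it was -0.25. The genes outside the pathway with the pattern most like Gas1, among 10883 compared, were Nfia (r = 0.993), Vegfd (0.991), Smim1 (0.991), Lgr5 (0.988) and Mrgprf (0.988). Lgr5, a receptor for R-spondins, went from a mean of 94.9 RPKM in WT control to 3.15 RPKM after TGF-β2, and Vegfd, a lymphatic growth factor, from 109.6 to 6.48 RPKM. The genes most like Gli1 were Tgs1 (r = 0.843), Mbd1 (0.829), Aqr (0.808), Proser1 (0.795) and Zfp809 (0.787). Gli1 rests on few reads, and its likeness to these genes is weaker. These correlations are descriptions over libraries that share their treatment and preparation, and carry no p-value.

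As Gas1, Gli2 and Smo were the most alike, the 250 bases before their RefSeq transcription start are shown, taken from RefSeq on GRCm38.p6 and written 5′ to 3′ on the strand of the gene. Capitals mark the short SMAD-type motif CAGAC, here read on the other strand. Each window is given with its position.
Gas1, chr13:60177536-60177785, minus strand: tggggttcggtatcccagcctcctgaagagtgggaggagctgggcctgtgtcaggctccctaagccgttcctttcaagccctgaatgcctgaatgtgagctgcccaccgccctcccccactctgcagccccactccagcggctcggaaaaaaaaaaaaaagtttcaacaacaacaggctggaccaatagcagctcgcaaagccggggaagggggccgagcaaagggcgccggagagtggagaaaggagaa
Gli2, chr1:119053620-119053869, minus strand: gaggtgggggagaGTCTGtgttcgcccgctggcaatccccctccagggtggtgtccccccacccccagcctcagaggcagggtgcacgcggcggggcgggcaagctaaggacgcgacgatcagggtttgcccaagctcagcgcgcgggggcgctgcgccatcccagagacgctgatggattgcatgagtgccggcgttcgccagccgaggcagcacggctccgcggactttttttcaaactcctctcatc
Smo, chr6:29735247-29735496, plus strand: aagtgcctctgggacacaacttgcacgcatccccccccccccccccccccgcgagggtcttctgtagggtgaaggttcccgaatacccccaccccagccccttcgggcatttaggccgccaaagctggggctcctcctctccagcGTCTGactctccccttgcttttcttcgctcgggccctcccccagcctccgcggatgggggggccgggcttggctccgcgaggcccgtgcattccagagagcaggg

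RefSeq held such a window for 7 of the 9 genes, all but Gli1 and Boc. For Cdon and Ptch1 the RefSeq start of the window lies inside the gene, 30948 and 7863 bases after the outermost GENCODE start, so their windows show internal starts. For Gli3 it lies 488 bases inside, and for the other 4 genes at most 170 bases away. The Gli-binding nonamer GACCACCCA, searched on both strands, was in none of the 7 windows, and 0.225% of 32851 windows of the same length held it. Its core CCACCCA, which lies within the nonamer, was also in none, against 8.11% of all windows. The palindromic SMAD motif GTCTAGAC was in none either, against 0.167%. CAGAC was found once in Gli2, Smo and Gli3, in 2 places in Ptch1, and not in Gas1, Hhip or Cdon, while 42.2% of all windows hold it. The window of Gas1, which had the largest fold change of the 7 genes, holds none of these motifs and has a GC content of 58.8% against a median of 52.4%. These are matches of letters in a short window and say nothing of binding.

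Whether the loss of Nox4 altered the pathway was asked by comparing Nox4 KO with WT, a contrast on which the genes had not been chosen, and which was therefore tested. In control cells 7 of the genes were tested and none was called, nor was any of all 10767 genes (0%). The unadjusted p-value was under 0.05 for 597 of all genes, or 5.54%, and for none of the 7, and DESeq2 called 6 of all genes and none of the 7. Smo had the narrowest interval, with a log2 difference of 0.00 and a 95% interval of -0.16 to 0.16. For Gas1 the difference was -0.04, with an interval of -1.30 to 1.21 that includes 2-fold differences in both directions, and the value was 0.75 without the third WT control library. The interval was -0.86 to 0.14 for Gli2, -0.58 to 0.01 for Gli3, -0.52 to 0.25 for Cdon, -0.49 to 0.17 for Boc and -0.47 to 0.14 for Ptch1. Gli1 and Hhip were fitted without the filter. Gli1 was lower in every Nox4 KO control library than in any WT control library, as were 2.74% of the genes that passed the filter. Its log2 difference was -0.78 (-1.68 to 0.12), with an unadjusted p-value of 0.0813 (edgeR), on 8 to 26 reads per control library. Hhip differed by 0.63 (-0.29 to 1.56), with overlap.

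After TGF-β2, Nox4 KO and WT were compared for 6 of the genes, since Gas1 was under 1 RPKM in both. None was called, nor was any of the 10439 genes tested (0%). That includes Nox4, at a log2 difference of -1.17 (adjusted p = 0.838, edgeR). The unadjusted p-value was under 0.05 for 337 of all genes, or 3.23%, and for none of these 6. With DESeq2, 6 of all genes were called and none of these. The log2 difference was 0.35 for Cdon (95% interval -0.02 to 0.72), 0.29 for Ptch1 (-0.19 to 0.77), 0.27 for Gli3 (-0.49 to 1.04), 0.13 for Smo (-0.15 to 0.41), 0.09 for Gli2 (-0.85 to 1.02) and -0.03 for Boc (-0.29 to 0.22). For Gli2 it was -0.42 without the third stimulated Nox4 KO library. Fitted without the filter, Gas1 differed by 0.02, with an interval of -1.10 to 1.15, Gli1 by 0.18 (-0.87 to 1.22) and Hhip by 0.18 (-0.61 to 0.98).

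The response to TGF-β2 itself was compared between the genotypes with an interaction term over all 12 libraries. None of the 7 genes passed an adjusted p-value of 0.05, and neither did any of the 10890 genes tested (0%). An unadjusted p-value under 0.05 was reached by 292 genes of the table, or 2.68%, and by none of the 7, and DESeq2 called 6 of all genes and none of the 7. The differences were above 0 for all 7 genes in this fit, which share the same 12 libraries, and their intervals all included 0. The direction did not hold for 3 of them. Gas1 was at -0.25 with a replicate block and at -0.73 without the third WT control library, which also took Boc to -0.04. The largest was that of Gli3 at 0.56 (-0.27 to 1.39), or 0.25 without the second stimulated WT library. Cdon followed with 0.48 (-0.03 to 1.00), then Gli2 with 0.45 (-0.60 to 1.50) and Ptch1 with 0.45 (-0.10 to 1.00). For Gas1 it was 0.08 (-1.72 to 1.88), so a moderate difference in its response was not detectable with 3 libraries a group, and for Gli2 it was -0.06 without the third stimulated Nox4 KO library. Cdon was called in WT and not in Nox4 KO, and the test of that difference gave an adjusted p of 0.854 (edgeR's quasi-likelihood test).

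**Figure D3:**
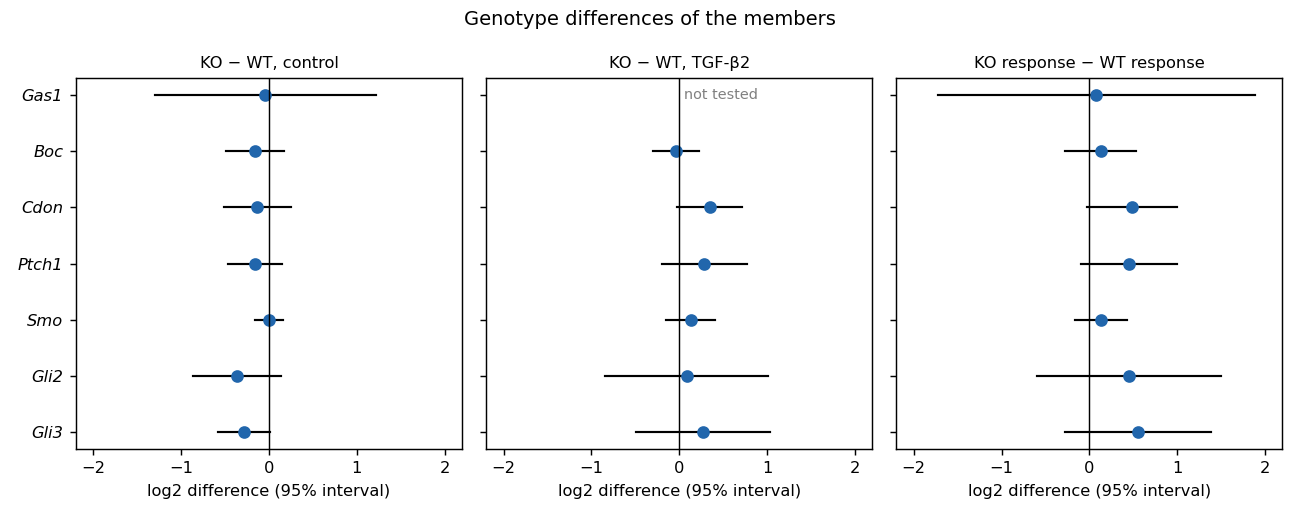
Log2 differences between Nox4 KO and WT for the Hedgehog pathway genes in control (left), after TGF-β2 (middle) and in their response to TGF-β2 (right); points are edgeR estimates from 3 libraries a group and lines are 95% intervals. Every interval includes 0, and those of Gas1 are the widest, from -1.30 to 1.21 in control and from -1.72 to 1.88 for the response.

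The rest of the pathway was followed with a list of 50 other genes, of which 49 were in the table and 38 passed the filter in both TGF-β2 comparisons. The list was drawn up with earlier results of these data known, so its adjusted p-values for TGF-β2 are given as description. The ligands were close to absent. Shh, the ligand of the hair follicle, received 1 read in all 12 libraries together. A count of 0 allows up to 3 reads in a library, for counting error only. Dhh, which is made by Schwann cells, received 2 to 15 reads per library. Ihh, the ligand of cartilage and bone, received 3 to 6 reads in WT control and 14 to 21 in WT with TGF-β2, and 1 to 5 reads in Nox4 KO control against 9 to 13 after TGF-β2. Fitted without the filter, Ihh rose by a log2 fold change of 2.09 ± 0.49 in WT (SE, adjusted p = 0.0232, edgeR) and had 1.66 ± 0.57 in Nox4 KO (adjusted p = 0.0862). At its highest Ihh reached 0.226 RPKM.

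None of the genes of ligand release and surface reception that passed the filter was called. Disp2, a relative of Disp1, was under it and fell in both genotypes when fitted without it. Its mean went from 0.321 to 0.0891 RPKM in WT (log2 fold change -1.76 ± 0.22, SE, adjusted p = 0.00165, edgeR) and from 0.372 to 0.134 RPKM in Nox4 KO (-1.35 ± 0.28, SE, adjusted p = 0.0174), without overlap between control and stimulated libraries. Disp1, the transporter that releases the ligand, was at 11.8 to 23.8 RPKM over all libraries, with a log2 fold change of -0.20 ± 0.17 in WT and -0.11 ± 0.24 in Nox4 KO. Hhat, which attaches palmitate to the ligand, rose in WT by 0.52 ± 0.15 on the log2 scale (adjusted p = 0.0475, edgeR), under the 2-fold limit. In Nox4 KO it had 0.30 ± 0.17 (adjusted p = 0.218, edgeR).

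Among the genes that control Smo and the Gli proteins, Sufu, which holds Gli proteins back in the cytoplasm, varied little. It was at 6.67 to 7.70 RPKM in every library, with a log2 fold change of -0.02 (95% interval -0.22 to 0.18) in WT and 0.03 (-0.14 to 0.20) in Nox4 KO. Evc, a ciliary partner of Smo, fell in both genotypes, with a log2 fold change of -0.79 ± 0.10 (SE, adjusted p = 0.00284, edgeR) in WT and -0.64 ± 0.12 (SE, adjusted p = 0.0120) in Nox4 KO. The mean of Evc went from 6.77 to 3.79 RPKM in WT and from 7.73 to 4.66 RPKM in Nox4 KO. Kif7, the ciliary kinesin that organizes Gli proteins at the cilium tip, also fell in both, at -0.55 (adjusted p = 0.0364, edgeR) and -0.51 (adjusted p = 0.0479). So did Inpp5e, a phosphatase of the ciliary membrane, at -0.41 (adjusted p = 0.0269, edgeR) and -0.49 (adjusted p = 0.0237). Gpr161, Btrc, Arrb1 and Stk36 passed an adjusted p-value of 0.05 in WT, with log2 fold changes between -0.96 and -0.32. In Nox4 KO these genes lay between -0.57 and -0.15 and did not pass without a replicate block. Stk36 passed the filter only through the control groups, at means of 1.095 against 0.669 RPKM in WT and 1.01 against 0.726 RPKM in Nox4 KO. In Nox4 KO, Prkaca, a catalytic subunit of protein kinase A, fell, with -0.34 (adjusted p = 0.0109, edgeR), and Grk2, a kinase that phosphorylates Smo, rose, with 0.28 (adjusted p = 0.0144). In WT the values were alike, at -0.27 for Prkaca (adjusted p = 0.231, edgeR) and 0.29 for Grk2 (adjusted p = 0.0516). All of these stayed within the 2-fold limit.

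Target genes held the calls of the list. Ccnd1, which encodes cyclin D1, was at 34.4, 40.6 and 56.1 RPKM in WT control and at 8.09, 8.43 and 9.61 RPKM in WT with TGF-β2. For Nox4 KO the values were 36.6, 41.1 and 97.1 RPKM in control and 9.47, 10.7 and 21.1 RPKM after TGF-β2. It fell in both genotypes, with a log2 fold change of -2.28 ± 0.18 (SE, adjusted p = 0.000742, edgeR) in WT and -1.99 ± 0.48 (SE, adjusted p = 0.0267) in Nox4 KO. The Nox4 KO call was lost without the second control library (adjusted p = 0.0502) and without the first or second stimulated library (adjusted p = 0.0805 and 0.104, edgeR). With the replicate number as a block, Ccnd1 in Nox4 KO had -1.95 ± 0.07 (SE, adjusted p = 0.000124, edgeR). Foxc2, a forkhead transcription factor, was at 2.59 to 3.60 RPKM in WT control and at 5.86 to 6.91 RPKM after TGF-β2, and rose by 1.07 ± 0.17 (SE, adjusted p = 0.00619, edgeR). It was at 0.95 on the log2 scale, under the 2-fold limit, without the third WT control library. In Nox4 KO it was at 1.65, 3.50 and 3.36 RPKM in control and at 3.07, 5.21 and 7.40 RPKM after TGF-β2, higher in each of the 3 numbered pairs. Its log2 fold change there was 0.97 ± 0.40 (SE, adjusted p = 0.116, edgeR), and with the replicate number as a block it was 0.95 ± 0.13 (SE, adjusted p = 0.00303), under the 2-fold limit. Mycn, a Myc-family transcription factor, rose in WT from 0.345 to 0.711 RPKM in the control libraries to 0.958 to 1.14 RPKM (1.13 ± 0.30, SE, adjusted p = 0.0357, edgeR). It passed the filter there only through the stimulated group, at a mean of 1.08 RPKM against 0.504 RPKM in control. Fitted with no filter, it had 1.17 (adjusted p = 0.0341, edgeR). Its call was lost without the first or the third WT control library and without the first or the second stimulated WT library, with adjusted p-values from 0.0594 to 0.125. In Nox4 KO the log2 fold change of Mycn was 0.42 ± 0.31 (SE, adjusted p = 0.34, edgeR). Mycn in Nox4 KO control libraries was at 0.922 to 1.17 RPKM, above every WT control library as in 10.9% of all genes, at an unadjusted p-value of 0.0115 and an adjusted p-value of 0.828 (edgeR). In this contrast it passed the filter only through the Nox4 KO group, at a mean of 1.08 RPKM against 0.504 RPKM in WT. Bcl2, an inhibitor of cell death, rose in WT (0.88 ± 0.19, SE, adjusted p = 0.0200, edgeR) and in Nox4 KO (0.91 ± 0.08, SE, adjusted p = 0.00260). Sox9 passed the adjusted p-value in WT at -0.78 (adjusted p = 0.0119, edgeR) and Osr1 in Nox4 KO at -0.89 (adjusted p = 0.0118). Sox9 was at -0.56 in Nox4 KO (adjusted p = 0.125, edgeR) and Osr1 at -0.52 in WT (adjusted p = 0.121). Bcl2, Sox9 and Osr1 all stayed within the 2-fold limit.

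**Figure D4:**
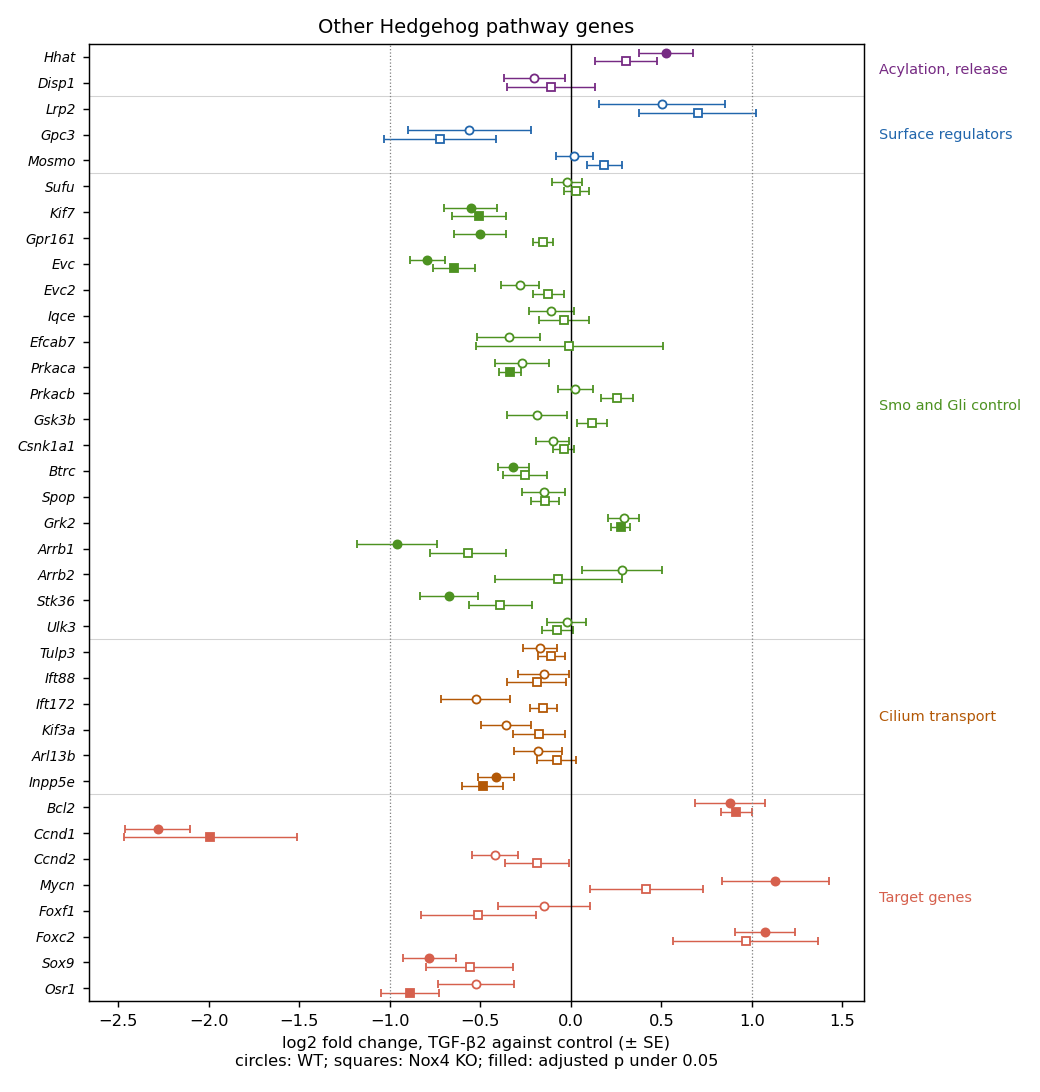
Log2 fold change of TGF-β2 against control, with its SE, for 37 of the 38 other Hedgehog pathway genes above the filter (1 is counted but not drawn), grouped by role; circles are WT and squares Nox4 KO, filled where the adjusted p-value is under 0.05, and dotted lines mark a 2-fold difference. Ccnd1, at -2.28 and -1.99, lies outside the lines in both genotypes, and Mycn and Foxc2 lie outside in WT on the higher side.

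Counted over the list, 3 of 38 genes were called in WT (2 higher, 1 lower) and 1 in Nox4 KO (lower), where 7.72% and 6.8% of all genes tested were called. At any fold change, 13 genes of the list passed in WT (4 higher, 9 lower) and 9 in Nox4 KO (2 higher, 7 lower), against 22.6% and 30% of all genes. With the replicate number as a block, which pairs the Nox4 KO libraries, 17 genes of the list passed in Nox4 KO (5 higher, 12 lower), against 54% of all genes, among them Foxc2, Hhat, Btrc, Arrb1 and Stk36. The median log2 fold change of the 38 genes was -0.19 in WT and -0.13 in Nox4 KO, beside 0.00 and -0.01 over all genes tested. The 4 genes higher in WT were Hhat, Bcl2, Mycn and Foxc2. Between Nox4 KO and WT none of the 38 genes in control and none of the 37 after TGF-β2 was called. In control 1 gene, Mycn, and after TGF-β2 1 gene, Evc, had an unadjusted p-value under 0.05, and in the interaction 1 gene did, Gpr161 (0.36, adjusted p = 0.854, edgeR).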

How the data were processed

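RNA of 12 libraries was sequenced as single-end reads. The submitters' processing notes name CASAVA 1.8.2, STAR 2.4 and featureCounts 1.4.6. The authors mapped reads to GRCm38, discarded reads with more than 1 location, counted reads on the merged exons of protein-coding isoforms, and deposited raw counts per gene without normalization. Use of strand is not stated.

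Symbols and exon lengths came from GENCODE M21, matched by Ensembl identifier for all 21556 genes. RPKM was computed from the deposited count, the length and the library total. Genes with a mean of at least 1 RPKM in at least 1 compared group were tested with edgeR 4.0.16 (R 4.3.3), TMM normalization, the quasi-likelihood test and Benjamini-Hochberg adjustment, on the 6 libraries of each pair and on all 12 for the interaction. The SE was derived from the F statistic. Alternatives were DESeq2 1.42.0, other normalizations and filters, a replicate block, no fold limit, a joint fit and leaving out each library. The written design names the main tests and does not list these alternatives. The test was checked on simulated counts.

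The members, the list of other pathway genes, the markers and the tests were chosen with earlier results of these data known. Named were the 9 members, listed genes called in either TGF-β2 comparison, Shh, Ihh, Dhh, Sufu, Disp1, Nox4, and the 5 genes most correlated with Gas1 and with Gli1. Others, such as Hhat, Evc, Kif7, Bcl2 and Disp2, were named after their values were seen. Foxl1 was not analysed here, and some genes of the list are counted but not reported by name. Adipocyte, Schwann cell and melanocyte markers were near 0. Muscle and pericyte markers were higher after TGF-β2, through Acta1 and Cspg4.

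Between replicates of a group the chi-square per gene was 14.4 to 147, above sampling noise. Replicate numbers recur across groups in the labels. In Nox4 KO, libraries of one number departed from the means of their groups in the same way with and without TGF-β2 (correlations 0.775, 0.683 and 0.748 over 10890 genes), so the numbers were taken to pair these libraries, from the data alone. The other comparisons had at least 1 correlation of 0.1 or less. An SE printed for Nox4 KO is from the fit without this pairing unless pairing or a block is named. With the block the SE in Nox4 KO was 0.27 for Gas1, 0.25 for Gli2, 0.14 for Ptch1 and 0.13 for Gli3. It was 0.06 for Cdon, 0.06 for Smo and 0.05 for Boc.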

Additional observations from a re-analysis of the deposited data

How the results depend on the processing

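No called log2 fold change of the 9 genes changed sign under an alternative. Of all 477 recomputed log2 values of these genes, 25 changed sign, in 10 of 34 gene and comparison pairs, none of them called (lowest adjusted p 0.646). Of these, 20 came from leaving out a library. Gas1, Gli2 and Cdon were called in WT under every alternative, leaving out each library included. The WT count was 3 in each case, except without the fold limit, where Smo made it 4. As these genes were chosen with their responses known, such calls describe the data and lend the choice no support. In Nox4 KO the count of the 9 genes called was 2, or 4 without the fold limit, 3 with filterByExpr or no filter, which admit Hhip, and 1 to 2 with each library left out in turn. For the other pathway genes the WT count of 3 became 5 with filterByExpr and 5 with no filter, which admit Ihh and Disp2. It became 4 with scaling by library size alone, which added Arrb1, 13 without the fold limit, and 1 to 4 with each library left out. The Nox4 KO count of 1 became 2 with filterByExpr, 2 with no filter, 2 with all 12 libraries in the fit, 9 without the fold limit, and 0 to 2 with each library left out. Without the third WT control library, only Ccnd1 of the list was called in WT. A replicate block gave 3 of the 9 genes in WT and 2 in Nox4 KO and changed no call of the pathway genes. Without the fold limit, that block took the pathway genes passing in Nox4 KO from 9 to 17 and all genes from 3243 to 5842. For the members it took the number passing from 4 to 5, with Boc added. In Nox4 KO against WT the count was 0 for the 9 genes and for the other pathway genes under each alternative run. In the interaction it was 0 for the 9 genes, and the other pathway genes were not counted there under the alternatives.

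Over all genes, the fold limit moved the counts most. Without it 1117 genes were higher and 1308 lower in WT, and 1637 and 1606 in Nox4 KO, against 282 and 547, and 240 and 495, with it. Scaling by library size alone gave 264 higher and 604 lower in WT and 203 and 577 in Nox4 KO. Gli1 and Hhip received few reads, at most 28 and 109 in a library. The cause of the moves was not tested.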
